A study of Danio rerio with 1536 samples.

Results

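The nicotinic and muscarinic acetylcholine receptor genes of single spinal neurons of adult zebrafish are described here, over every gene of the count tables whose symbol names a nicotinic subunit (chrna, chrnb, chrnd, chrne or chrng) or a muscarinic receptor (chrm). The rule took 35 of the 32519 genes. Of these, 20 encode neuronal nicotinic subunits, 6 encode the subunits of the muscle receptor and 9 encode muscarinic receptors. Several symbols stood for a pair of gene copies, and such a copy is written with the last digits of its Ensembl identifier, so that CHRM5_99928 is the CHRM5 copy ENSDARG00000099928. The genes chrm4a (ENSDARG00000069254), chrna2a (ENSDARG00000006602), chrna4b (ENSDARG00000070724) and chrna9a were named by elimination within their families. The gene chrna2b, named as in the study, is ENSDARG00000057025.

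Acetylcholine is the transmitter with which motoneurons (MNs) drive muscle, and MNs also release it inside the spinal cord. Nicotinic receptors are ion channels built of subunits around a central pore, and neurons and muscle draw on different subunit genes. Muscarinic receptors act through G proteins, with CHRM1, CHRM3 and CHRM5 coupled to Gq, and CHRM2 and CHRM4 to Gi/o.

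GFP+ cells were sorted from the spinal cords of 7-week-old fish of either sex, from Tg(isl1a:GFP), whose reporter marks MNs and other neurons, and from Tg(chx10:GFP), whose reporter marks V2a interneurons (INs). Smart-seq2 libraries were made on 2 plates of 384 wells per line, a separate pool of 6 to 10 cords being dissociated for every plate. Wells with 2000 to 9000 genes and at most 30% spike-in reads were kept, which left 259 and 363 cells of the isl1a:GFP plates and 300 and 325 cells of the chx10:GFP plates. The median number of reads on genes per kept well lay between 324159 and 436783 over the 4 plates. On isl1a:GFP plate 1, 114 wells exceeded the spike-in limit, against 1 to 7 wells on the other plates, and a limit of 10% changed no number of receptor genes called.

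Counts were summed over the cells of a group on each plate and are given as counts per 1000000 reads on genes (CPM), plate 1 first, so that n = 2 plates throughout. Between the lines, p-values measure only the spread between the plates of a line. Within a line, plate was a block, and p-values measure only how differences between groups varied from plate to plate. Fewer expressing cells and less RNA per cell cannot be told apart in such sums. Beside them stands the share of cells with at least 3 reads of a gene after every cell had been thinned to 240501 reads, with shallower cells left out. The libraries had no molecular identifiers, and intervals on reads cover counting error only. Levels of different genes were not compared, since no gene lengths were used.

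The isl1a:GFP cells held 334 MN-like cells, 177 cells with markers of cerebrospinal fluid (CSF)-contacting neurons, 60 serotonergic-like cells and 51 remaining cells with glutamatergic markers. The labels call the isl1a:GFP cells motoneurons, but only 334 of the 622 cells fell in clusters named MN-like from their markers. Names were given to clusters and not to single cells. A cluster of 71 of the MN-like cells had 6 of 7 MN markers detected, but none among its leading genes. The MN transcription factor mnx1 had 132 and 371 CPM among the MN-like cells, whereas no other group exceeded 2.68 CPM. Since mnx1 helped to name the cells, this is not independent evidence. Reads of strong markers of another cell type were also found: urp1, a gene of CSF-contacting neurons, reached 3 reads in 1.8% and 10.8% of MN-like cells, and tph2, of serotonergic neurons, in 0.901% and 2.45%, at median depths of 422397 and 445998 reads, against 94.7% and 87.4% for urp1 and 100% for tph2 in their own groups. Oligodendrocyte markers were present in every group, with summed levels of 530.1 to 10880 CPM. Without the 86 wells with over 1% of their reads on glial and microglial markers, edgeR called 1 receptor gene between the lines, 4 among isl1a:GFP groups, 0 among MN clusters and 3 among V2a IN clusters, against 1, 4, 0 and 4 with all wells.

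The receptor genes fell into a described and a sparse set. At least 10 CPM on both plates of at least 1 group or cluster was reached by 11 of the 20 neuronal nicotinic genes, 5 of the 9 muscarinic genes and none of the 6 muscle genes. The muscle genes chrna1, CHRNB1_22532, CHRNB1_69660, chrnd, chrne and chrng had highest levels between 0.944 and 20.1 CPM on a single plate, and at least 3 reads in 4 to 47 of the 1247 cells. The summed level of 8 skeletal muscle markers was 2.076 to 16.12 CPM over all groups and clusters. Of the muscle genes, chrne, the epsilon subunit of the adult receptor, differed between plates of a line, with 0.434 and 10.8 CPM in MN-like cells and 0.676 and 7.04 CPM in chx10:GFP cells. The 4 sparse muscarinic genes reached at most 3.72 to 34.4 CPM on a plate, and the 9 sparse neuronal nicotinic genes 0.948 to 23.1 CPM.

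The number of receptor genes detected in a cell differed between groups. In thinned cells, the median was 3 and 2 receptor genes in MN-like cells, 3 on both plates in glutamatergic-like cells and 2 on both plates in chx10:GFP cells, against 1 on both plates in the CSF-contacting-like and in the serotonergic-like cells. No receptor gene was detected in 11.7% and 16.7% of MN-like cells and in 8.33% and 0% of glutamatergic-like cells. Among CSF-contacting-like cells the share was 44% and 37.9%, and among serotonergic-like cells 44.4% and 35.7%. The number of all genes detected per cell was not compared between these groups. Fewer receptor genes therefore cannot be told apart from fewer genes detected in general. Summed over the family, neuronal nicotinic genes had 369 and 379 CPM in MN-like cells, 581 and 426 CPM in chx10:GFP cells and 759 and 631 CPM in glutamatergic-like cells, but 138 and 66.7 CPM in CSF-contacting-like and 46 and 151 CPM in serotonergic-like cells. The muscarinic sum was lowest in MN-like cells, at 38.5 and 21.6 CPM. It was 59.5 and 108 CPM in CSF-contacting-like, 45.2 and 85.8 CPM in serotonergic-like, 64 and 199 CPM in glutamatergic-like and 86.7 and 76.4 CPM in chx10:GFP cells, and these overlapped with each other. No test was run on these sums.

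**Figure D1:**
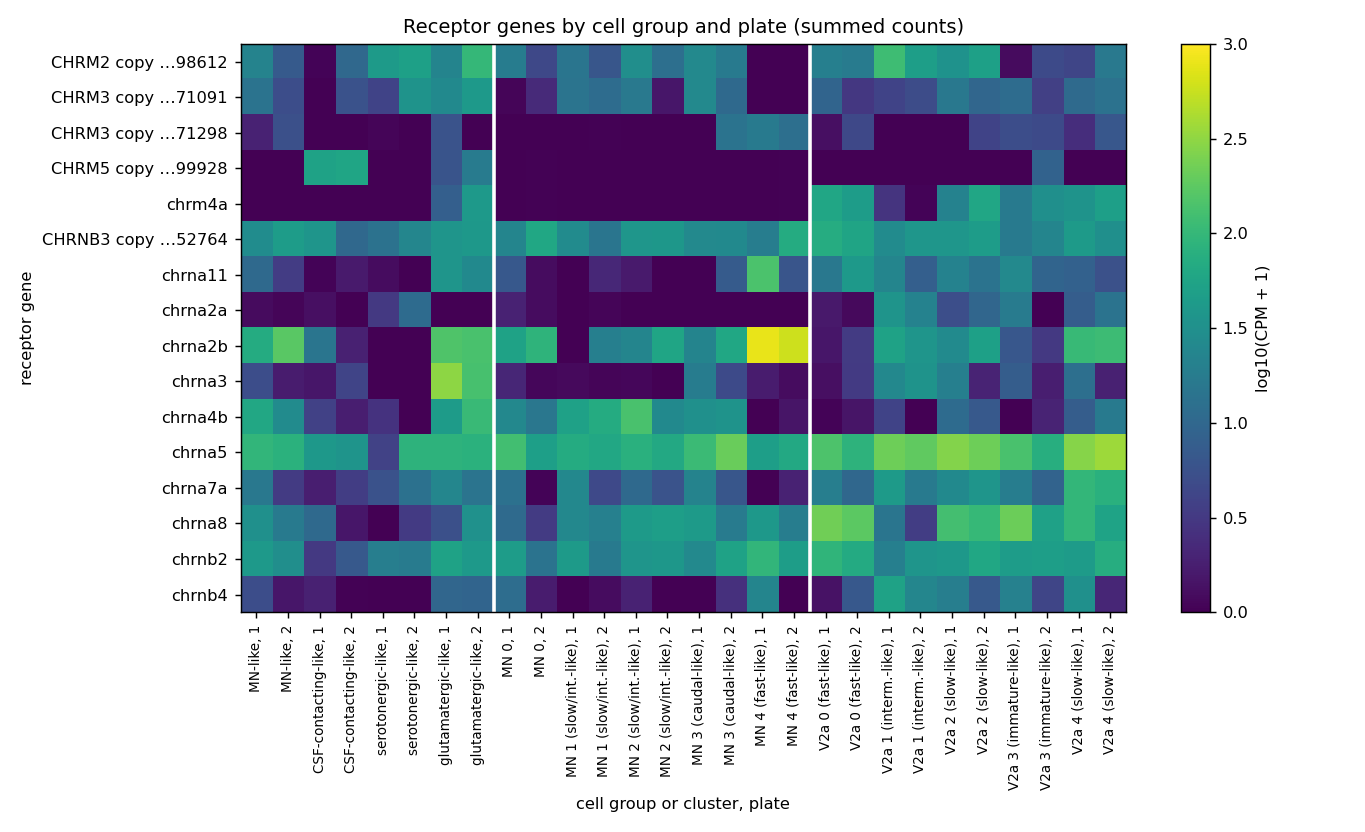
Levels of the 16 described receptor genes, as log10(CPM + 1) of counts summed per plate, in the isl1a:GFP groups (left), the MN clusters (middle) and the V2a IN clusters (right); each column is 1 group or cluster on plate 1 or 2. The gene chrna2b is highest in the fast-like MN cluster (797 and 589 CPM), and CHRM5_99928 in the CSF-contacting-like cells (52.4 and 57 CPM).

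The comparison of MN-like with chx10:GFP cells asked which receptors differ between the output neurons and the excitatory V2a INs. The 2 groups come from different lines, pools and plates, which cannot be told apart from cell type here. With edgeR's quasi-likelihood test and Benjamini-Hochberg adjustment over all genes, 1 of the 33 receptor genes tested was called at an adjusted p below 0.05, where 0.690% of all genes tested were called (0.397% as higher in chx10:GFP cells and 0.293% as higher in MN-like cells). The median log2 difference of the receptor genes was -0.44, with negative values lower in MN-like cells, against -0.02 over all genes, and 9 receptor genes had an unadjusted p below 0.05. The share of all genes below that unadjusted limit is not given, here or in later comparisons. Such numbers therefore cannot show an excess among receptor genes.

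The called gene was chrm4a, a Gi/o-coupled muscarinic receptor. It had 0 and 0.0213 CPM in MN-like cells and 23.5 and 34.6 CPM in chx10:GFP cells. No MN-like cell reached 3 reads among 111 and 204 thinned cells, and 7.69% and 10.1% of chx10:GFP cells did. For tph2 the share of chx10:GFP cells was 3.08% and 5.43% at median depths of 335016 and 394977 reads. Of the 11 and 18 chx10:GFP cells with a tph2 read, 8 and 15 had at least 3, so that this share need not be background. The groups did not overlap. Over both plates, 6383 reads in chx10:GFP cells stood against 2 reads in MN-like cells, a 2140-fold ratio with a 95% counting interval of 592 to 17676 (log2 difference -10.86, SE 0.95, adjusted p = 0.0189). The difference did not pass when all isl1a:GFP cells took the place of MN-like cells (log2 -3.95, adjusted p = 0.0538).

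The other described genes were not called in this comparison. Among them, chrna4b, a subunit of the common brain receptor, had 62.1 and 27 CPM in MN-like cells and 4.82 and 2.79 CPM in chx10:GFP cells, and 33.3% and 16.2% of MN-like cells held it against 1.54% and 1.81% of chx10:GFP cells. In the latter, the share lay below that of tph2 and above that of pkd2l1 (1.15% and 1.45%), a channel gene of CSF-contacting neurons. Of the 4 and 4 chx10:GFP cells with a pkd2l1 read, 3 and 4 had at least 3, so that its share need not be background either. The plates of the groups did not overlap (log2 difference 3.63, SE 0.57, adjusted p = 0.0616). Its family member chrna2a stood on the other side, with 0.217 and 0.107 CPM in MN-like cells against 14 and 6.84 CPM in chx10:GFP cells, again without overlap (log2 -5.93, SE 0.95, adjusted p = 0.0641). Both missed the threshold, and both were called when genes with low counts were not filtered out.

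The homomer-forming subunit chrna8, a relative of chrna7 known from chick, had 31 and 16.4 CPM in MN-like cells and 116 and 84.4 CPM in chx10:GFP cells (log2 -2.00, SE 0.41, adjusted p = 0.12). The gene chrna5, an accessory subunit that joins other alpha and beta subunits, had 92.3 and 81.3 CPM against 223 and 151 CPM (log2 -1.01, SE 0.32, adjusted p = 0.237). For chrna2b, the levels were 69.1 and 170 CPM against 38.1 and 27.2 CPM (log2 1.98, SE 0.51, adjusted p = 0.188). These sums join clusters of cells that differed in chrna2b, as given below. The plates of these 3 genes did not overlap between the groups, but no difference passed the test. The ganglionic pair of mammals, chrna3 and chrnb4, was low in MN-like cells, with 4.17 and 0.715 CPM for chrna3 and 4.09 and 0.533 CPM for chrnb4, against 14.8 and 7.94 CPM and 26.9 and 8.17 CPM in chx10:GFP cells. The beta subunit chrnb2 (39.7 and 29.5 CPM against 44.2 and 54.7 CPM) and the accessory subunit CHRNB3_52764 (27.9 and 44.6 CPM against 38.9 and 39.2 CPM) were not called either. The plates of chrnb2 did not overlap and lay lower in MN-like cells (log2 -0.44, SE 0.35, adjusted p = 0.648), and those of CHRNB3_52764 overlapped (log2 -0.01, SE 0.39).

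**Figure D2:**
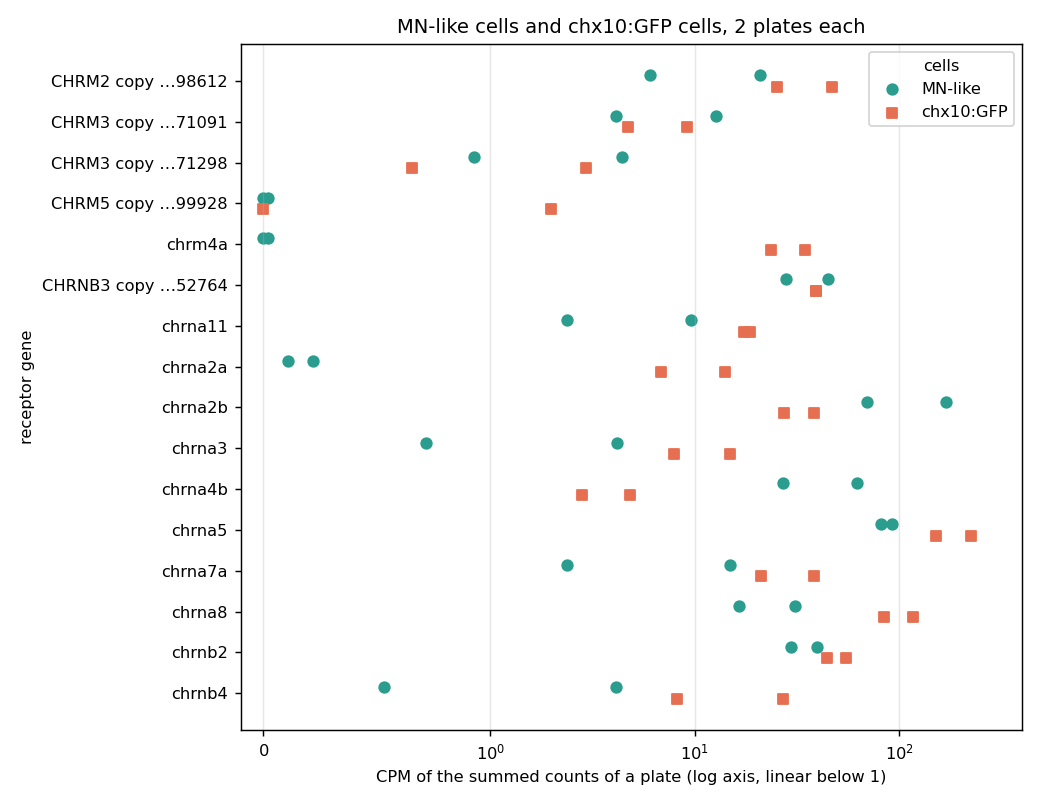
CPM of the 16 described receptor genes in MN-like cells (circles) and chx10:GFP cells (squares), 1 point per plate, on a log axis that is linear below 1. For chrm4a, MN-like cells lie at 0 and 0.0213 CPM and chx10:GFP cells at 23.5 and 34.6 CPM; for chrna4b the order is the opposite.

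Of the genes around the receptors in this comparison, 1 of 6 genes for acetylcholine synthesis and removal was called, where 0.690% of all genes tested were called. It was the vesicular transporter copy ENSDARG00000107527 listed as SLC18A3 (log2 7.55 higher in MN-like cells, SE 0.86, adjusted p = 0.0316). That copy was among the markers that named the MN-like cells, so that its higher level there is not independent evidence. Of 8 partner genes tested, 1 was called, agrn, which encodes the protein agrin that gathers receptors at the neuromuscular junction (log2 3.51, SE 0.39, adjusted p = 0.031). None of 16 effector genes of muscarinic receptors was called by edgeR, and 4 had an unadjusted p below 0.05.

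The isl1a:GFP groups were compared to find receptors that set MNs apart from the other neurons of the line. The receptor genes had been held out of the clustering. The F-test over the 4 groups called 4 of 24 receptor genes tested, CHRM5_99928 (adjusted p = 0.00687), chrna3 (0.00938), chrna2b (0.0238) and chrm4a (0.0311), where 6.14% of all genes tested were called. Against the mean of the other groups, 3 receptor genes were called in CSF-contacting-like cells, all as higher (5.23% of all genes called in either direction), 1 in MN-like cells, as higher (2.04%), 4 in glutamatergic-like cells, all as higher (2.24%), and 2 in serotonergic-like cells, both as lower (3.40%). The genes called by the F-test had different patterns, and each is given by group. Where a group had no reads, the fitted log2 difference depends on the prior count and is left out.

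The Gq-coupled muscarinic gene CHRM5_99928 was highest in the CSF-contacting-like cells. It had 52.4 and 57 CPM there, 0 and 0.0213 CPM in MN-like cells, no read in serotonergic-like cells, and 4.95 and 16.5 CPM in glutamatergic-like cells. Of the thinned CSF-contacting-like cells, 20% and 23.2% held it. These plates lay above those of each other group, and 4211 reads stood against 2 in MN-like cells, a 3978-fold ratio with a counting interval of 1100 to 32854, and the level was at least 445-fold that of serotonergic-like cells, taking 3 counts over that group as the floor. The contrast of CSF-contacting-like cells with the mean of the others had an adjusted p of 0.00257. Fits without a plate leave 1 sum per group and take the spread from the clusters of the other line. Such fits cannot decide whether a call within a line rests on 1 plate, and their p-values are left out. With the cell with the most reads left out of each sum, 44.9 and 50 CPM remained in CSF-contacting-like cells, but 0.498 and 0 CPM in glutamatergic-like cells, whose own call (adjusted p = 0.0239) was then lost (adjusted p = 0.881).

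A further pair of genes passed the contrast of the CSF-contacting-like cells without passing the F-test, and they are named because of these values. The second CHRM5 copy, CHRM5_69598 (ENSDARG00000069598), had 5.59 and 34.4 CPM in CSF-contacting-like cells, 0 and 0.064 CPM in MN-like cells, 0 and 2.6 CPM in serotonergic-like and 0 and 2.66 CPM in glutamatergic-like cells (log2 7.49, adjusted p = 0.0231 in the contrast and 0.0706 in the F-test). On plate 1 a single cell held most of the reads, and 0.472 CPM remained without it. The alpha subunit chrna6, known from dopaminergic neurons of mammals, had 23.1 and 6.98 CPM in CSF-contacting-like cells, against 2.84 and 1.07 CPM in MN-like cells and 1 read in all of the serotonergic-like and 1 in all of the glutamatergic-like cells (adjusted p = 0.039 in the contrast and 0.111 in the F-test). Its ratio to serotonergic-like cells was 333-fold, with a counting interval of 59.6 to 13164, and to glutamatergic-like cells 300-fold, with 53.6 to 11843. It was held by 17.3% and 9.47% of CSF-contacting-like cells, and by 2.7% and 1.47% of MN-like cells. Whether the call of CHRM5_69598 or that of chrna6 rests on 1 plate was not decided, since fits without a plate leave 1 sum per group.

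The nicotinic gene chrna2b was high in MN-like cells (69.1 and 170 CPM) and in glutamatergic-like cells (147 and 136 CPM). It had 13.8 and 0.881 CPM in CSF-contacting-like cells, and no read was found in the 60 serotonergic-like cells. Both high groups passed their contrasts as higher (adjusted p = 0.0352 for MN-like and 0.0253 for glutamatergic-like cells), and the serotonergic-like cells as lower (adjusted p = 0.0221). With the same floor, MN-like and glutamatergic-like cells stood at least 1086-fold and 1143-fold above serotonergic-like cells. The plates of the MN-like and glutamatergic-like cells overlapped. Within the MN-like cells the level was uneven. The fast-like cluster described below had 797 and 589 CPM, and the other MN clusters had 0 to 88.1 CPM. The study chose chrna2b on these cells as a marker of fast MNs, so that its level in MNs is not independent evidence.

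The muscarinic gene chrm4a, almost without reads in MN-like cells, had 7.05 and 41.1 CPM in glutamatergic-like cells and no read in CSF-contacting-like and serotonergic-like cells. It was detected in 3 of 24 and 5 of 22 thinned glutamatergic-like cells, and 1.81 and 22.6 CPM remained without the highest cell of each plate. Against the mean of the other groups the adjusted p was 0.018 and, without these cells, 0.0297, while the F-test then no longer called the gene, and the level was at least 629-fold that of CSF-contacting-like cells and at least 199-fold that of serotonergic-like cells.

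The call of chrna3 rested on few cells. It had 310 and 133 CPM in glutamatergic-like cells, 4.17 and 0.715 CPM in MN-like cells, 0.528 and 3.12 CPM in CSF-contacting-like cells and no read in serotonergic-like cells. Only 1 of 24 and 3 of 22 thinned glutamatergic-like cells held it, and 0.1 and 8 CPM remained without the highest cell of each plate. The adjusted p of the glutamatergic-like contrast was 0.00532, and 0.375 with these cells left out. The serotonergic-like cells passed as lower (adjusted p = 0.0416), and whether this call rests on 1 plate was not decided.

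**Figure D3:**
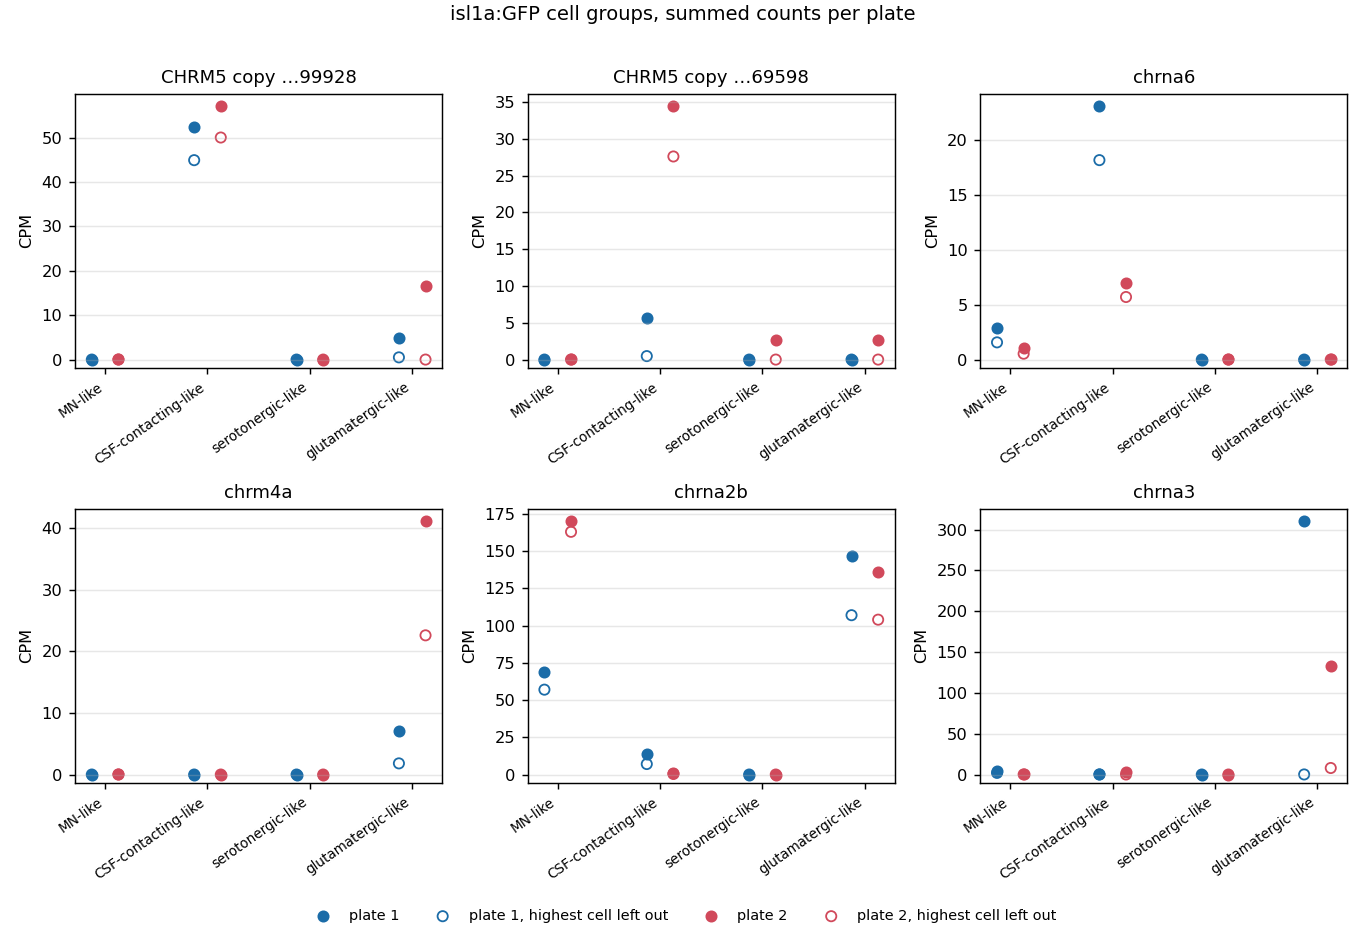
CPM of 6 receptor genes in the 4 groups of isl1a:GFP cells, for plate 1 (blue) and plate 2 (red); filled points are all cells and open points leave out the cell with the most reads of the gene. CHRM5_99928 stays at 44.9 and 50 CPM in CSF-contacting-like cells without that cell, and chrna3 in glutamatergic-like cells falls to 0.1 and 8 CPM.

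The other described genes were not called among the groups. Accessory chrna5 was read in every group, with 92.3 and 81.3 CPM in MN-like, 38.4 and 34.3 CPM in CSF-contacting-like, 2.95 and 85.3 CPM in serotonergic-like and 87 and 80.5 CPM in glutamatergic-like cells. The beta subunit chrnb2 had 2.17 and 5.94 CPM in CSF-contacting-like cells and 16.9 to 52.8 CPM on the plates of the other groups, so that the CSF-contacting-like cells lay lowest. For chrna4b, the glutamatergic-like plates had 42.9 to 106 CPM and overlapped with the MN-like plates (27 to 62.1 CPM). The plates of the other groups had at most 2.77 CPM. Neither the glutamatergic-like contrast (adjusted p = 0.0525) nor the MN-like contrast (adjusted p = 0.137) passed. The Gi/o-coupled CHRM2_98612 (ENSDARG00000098612) had 42.1 and 49.6 CPM in serotonergic-like cells and 0.0621 and 9.31 CPM in CSF-contacting-like cells, with 20.8 and 6.04 CPM in MN-like and 21.7 and 97.8 CPM in glutamatergic-like cells. The serotonergic-like and glutamatergic-like cells overlapped, as did the MN-like and CSF-contacting-like cells, and 18.5% and 21.4% of serotonergic-like cells held the gene. Of the effector genes of muscarinic receptors, 1 of 16 was called in the F-test, which called 6.14% of all genes tested. The number of effector genes called was thus near the share over all genes. The called gene was gnai1, the alpha subunit of an inhibitory G protein. It was higher in CSF-contacting-like cells (log2 1.63, SE 0.23, adjusted p = 0.00614) and lower in MN-like cells (log2 -1.74, SE 0.27, adjusted p = 0.019). Of 6 partner genes, agrn and dok7a, which encodes an adaptor of the muscle kinase MuSK, were called, agrn as higher in MN-like (log2 1.98, SE 0.39, adjusted p = 0.0428) and serotonergic-like cells (log2 2.05, SE 0.38, adjusted p = 0.0275), and dok7a as higher in CSF-contacting-like cells, with 36.5 and 51.5 CPM against at most 1.93 CPM on the plates of the other groups (adjusted p = 0.00478). All 5 ligand genes tested were called with higher levels in MN-like cells, but chata and slc18a3 helped to name those cells. The other ligand genes were not held out of the clustering, and the choline transporter gene SLC5A7 was among the leading genes of an MN-like cluster.

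Clustered on their own, with receptor and marker genes held out, the MN-like cells formed 5 clusters. Clusters 1 and 2 (62 and 61 cells) carried slow and intermediate markers, cluster 3 (60 cells) caudal hox genes and cluster 4 (53 cells, 8 on plate 1 and 45 on plate 2) fast markers, while cluster 0 (98 cells) stayed unnamed. It scored highest on the immature neuron list, of which 10 of 10 genes were detected, but none of them was among its 10 leading genes, which held nhlh2, NFIX and EBF2 and 1 marker of another class. Cluster 1 had no marker of any class among its leading genes, so that its name is weak. Its level of the slow marker esrrga was 920 and 575 CPM. Cluster 0 had 188 and 72.5 CPM, cluster 2 had 1027 and 776 CPM, cluster 3 had 1132 and 409 CPM and cluster 4 had 108 and 533 CPM. Of the other markers, the GRIN1 copy ENSDARG00000025728 had 973 and 455 CPM in cluster 1 and 1145 and 526 CPM in cluster 2. In cluster 4 it had 250 and 50.3 CPM. The copy ENSDARG00000027828 went the other way, with 1482 and 668 CPM in cluster 4 and 438 and 399 CPM in cluster 1. Cluster 2 had 456 and 261 CPM. The gene pcdh9 had 248 and 340 CPM in cluster 1, 457 and 594 CPM in cluster 2 and 372 and 333 CPM in cluster 3. Its cluster 4 level was 122 and 236 CPM. The comparison asked whether MN subtypes of the speed circuits carry different receptors. In the F-test over the 5 clusters, edgeR called 0 of 22 receptor genes tested, with 0.480% of all genes called, 6 had an unadjusted p below 0.05, and DESeq2 called 5. Against the mean of the other clusters, the fast-like cluster had 1 receptor gene called as higher and 1 as lower, where 0.870% of all genes were called in either direction. No receptor gene was called by edgeR in the contrasts of clusters 0 to 3, where 0.147%, 0.0226%, 0.0961% and 0.186% of all genes were called, and 2, 4, 3 and 6 receptor genes had an unadjusted p below 0.05. No share of all genes is given for these unadjusted p-values or for DESeq2.

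The gene called as higher in fast-like MNs was chrna2b, at 797 and 589 CPM. The other clusters stood at 52 and 88.1 CPM (cluster 0), 0 and 18.8 CPM (cluster 1), 22.4 and 56.8 CPM (cluster 2) and 21.6 and 60.6 CPM (cluster 3). The fast-like plates lay above all others, as the panel of chrna2b by MN cluster shows (log2 4.90, SE 0.76, adjusted p = 0.0111 in the contrast and 0.0872 in the F-test). At least 3 reads were found in 7 of 7 and 41 of 42 thinned fast-like cells, against shares of 0% to 32.4% in the other clusters, and 694 and 561 CPM remained without the highest cell. Without the block for plate, the adjusted p of the contrast was 0.0655. Since the study named chrna2b as a fast MN marker from these cells, this is no independent support for that name. Apart from the sequencing, the study reported chrna2b by in situ hybridization in fast MNs labeled from the muscle.

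The gene called as lower in fast-like MNs was chrna4b, with 0 and 0.464 CPM. Its levels were 24 and 14.6 CPM in cluster 0, 51 and 69.6 CPM in cluster 1, 135 and 25.4 CPM in cluster 2 and 30.8 and 34.1 CPM in cluster 3. The fast-like plates lay below all others, and 0 of 7 and 1 of 42 thinned fast-like cells held chrna4b, against 47.6% and 28.2% of cluster 1 cells and 46.9% and 30.8% of cluster 2 cells (log2 -6.85, SE 1.14, adjusted p = 0.0174 in the contrast and 0.0916 in the F-test). Whether this call rests on 1 plate was not decided, since fits without a plate leave 1 sum per cluster.

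No muscarinic read of CHRM2_98612 or of the Gq-coupled CHRM3_71091 (ENSDARG00000071091) was found in fast-like MNs. CHRM2_98612 had between 3.45 and 29.2 CPM on the plates of the other clusters, at least 54.4-fold to 161-fold above the floor of 3 counts over the fast-like cells (adjusted p = 0.0511). CHRM3_71091 had 0.0845 and 1.28 CPM in cluster 0, 13.3 and 10.6 CPM in cluster 1, 15.5 and 0.534 CPM in cluster 2 and 24.7 and 9.67 CPM in cluster 3 (adjusted p = 0.24). Neither contrast passed. The other CHRM3 copy, CHRM3_71298 (ENSDARG00000071298), went the other way, with 16.3 and 11.4 CPM in fast-like cells, 0 and 12.8 CPM in caudal-like cells and at most 0.0536 CPM in clusters 0 to 2 (adjusted p = 0.103), and on plate 2 a single fast-like cell held nearly all of its reads, 0.315 CPM remaining without it. The gene chrna11 had 141 and 5.15 CPM in fast-like cells and 0 to 6.18 CPM elsewhere, so that the plates of the fast-like cluster differed more from each other than the lower of them did from the other clusters (adjusted p = 0.276).

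**Figure D4:**
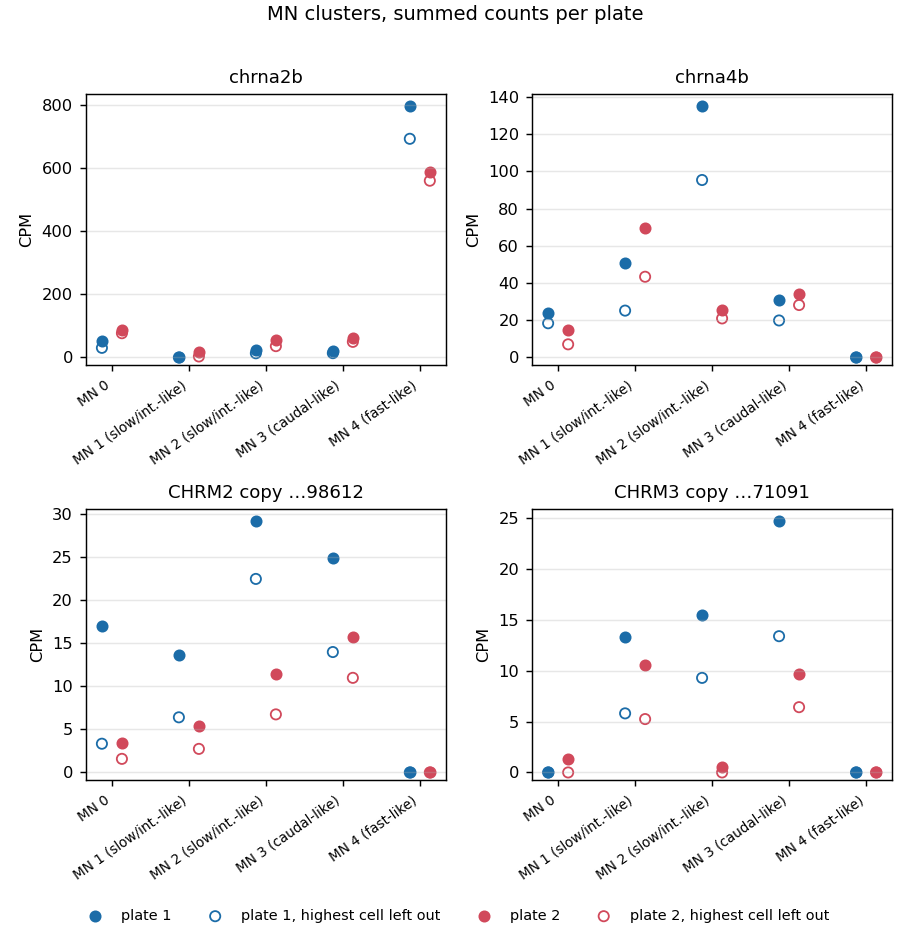
CPM of 4 receptor genes in the 5 MN clusters, for plate 1 (blue) and plate 2 (red); filled points are all cells and open points leave out the cell with the most reads of the gene. In the fast-like cluster chrna2b has 797 and 589 CPM, chrna4b 0 and 0.464 CPM, and CHRM2_98612 and CHRM3_71091 have no read.

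Subunits that MN clusters shared were chrna5, with 46.7 to 208 CPM over the clusters and plates, chrnb2, with 12.7 to 93.1 CPM, and CHRNB3_52764, with 13.6 to 69.3 CPM, and none of the 3 was called in any contrast. Among the ligand genes, the SLC18A3 copy ENSDARG00000107527 was called, as higher in caudal-like cells (193 and 164 CPM, adjusted p = 0.000692) and lower in fast-like cells (no read, adjusted p = 0.00118), with 8.04 to 28 CPM in the other clusters. The gene ache, whose product breaks down acetylcholine, passed the contrast of the fast-like cells as higher (log2 1.45, SE 0.25, adjusted p = 0.0229) but not the F-test (0.154). No partner gene of 5 and no effector gene of 16 was called by edgeR in the F-test, and 1 of each had an unadjusted p below 0.05. That F-test called 0.480% of all genes tested.

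The chx10:GFP cells formed 5 clusters, named from markers as cluster 0 (fast-like, 151 cells), cluster 1 (intermediate-like, 142 cells), clusters 2 and 4 (slow-like, 141 and 75 cells) and cluster 3 (immature-like, 116 cells). Clusters 2 and 4 each had 1 slow marker among their 10 leading genes. Those of cluster 2 also held HOXC12, HOXC11, ier2a and egr1. Cluster 3 had 1 immature marker and 1 marker of another class among its leading genes, so that its name is weak. The F-test called 4 of 28 receptor genes tested, all of them nicotinic: chrna2b (adjusted p = 0.00417), chrna8 (0.00534), chrna5 (0.0183) and chrna7a (0.0437), where 4.59% of all genes were called. Against the mean of the other clusters, 2 receptor genes were called in the fast-like cluster (0.997% of all genes), 3 in the intermediate-like cluster (2.06%), none in the slow-like cluster 2 (0.144%, and 5 receptor genes with an unadjusted p below 0.05), 2 in the immature-like cluster (6.49%) and 3 in the slow-like cluster 4 (1.02%). With at least 3000 genes per well chrna2b and chrna5 were called. Fits without a chx10:GFP plate leave 1 sum per cluster and take the spread from the clusters of the other line. They cannot decide whether the calls of the 4 genes rest on 1 plate.

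With all cells, the slow-like cluster 4 had the highest levels of 3 of the called genes. For chrna2b they were 103 and 114 CPM, against 0.5 and 2.36 CPM in the fast-like cluster, 52.6 and 35.4 CPM in the intermediate-like cluster, 26.3 and 49.8 CPM in the slow-like cluster 2 and 5.6 and 2.18 CPM in the immature-like cluster. Cluster 4 lay above all other plates (log2 3.51, SE 0.48, adjusted p = 0.00672), and 40.5% and 58.3% of its cells held chrna2b. The fast-like cluster was lower (log2 -4.45, SE 0.77, adjusted p = 0.021), with 2% and 2.63% of its cells holding chrna2b, though its plates overlapped with those of the immature-like cluster.

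The homomer-forming chrna7a had 96.4 and 79 CPM in the slow-like cluster 4. The next plates were 41.7 and 16 CPM in the intermediate-like cluster and 25.2 and 35.4 CPM in the slow-like cluster 2, and the fast-like and immature-like clusters had 8.02 to 18 CPM. Cluster 4 stood apart from all others (log2 2.24, SE 0.41, adjusted p = 0.0308), and this call was lost without wells rich in glial reads (adjusted p = 0.0586). For accessory chrna5, the levels with the highest cell of each sum left out were 244 and 338 CPM in cluster 4, 249 and 180 CPM in cluster 2, 203 and 169 CPM in the intermediate-like, 124 and 75 CPM in the fast-like and 98.2 and 65.5 CPM in the immature-like cluster, so that clusters 4 and 2 overlapped. With all cells, cluster 4 was higher (log2 1.12, SE 0.23, adjusted p = 0.0419, and 0.117 without these cells) and the immature-like cluster lower (log2 -1.06, SE 0.26, adjusted p = 0.0327). The call of cluster 4 was lost in 8 of 11 alternatives. Of its cells, 64.9% and 95.8% held chrna5.

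The gene chrna8 had a pattern of its own. It was highest in the fast-like cluster, at 224 and 173 CPM, and lowest in the intermediate-like cluster, at 13.5 and 2.55 CPM. The slow-like clusters lay between them, at 127 and 101 CPM (cluster 2) and 95.6 and 54.4 CPM (cluster 4), and the immature-like cluster had 211 and 51 CPM. The intermediate-like cells lay below all other plates (log2 -4.11, SE 0.52, adjusted p = 0.00151), with 5.63% and 1.92% of cells holding chrna8 against 54% and 48.7% in the fast-like cluster. The fast-like cluster was higher (log2 1.97, SE 0.35, adjusted p = 0.0223), and overlapped with the immature-like one. In the fast-like cluster 5 of 9 astroglial markers exceeded 10 CPM and their sum was 1472 and 2699 CPM, against 259.4 to 629.5 CPM in the other clusters. An edgeR fit left out the 65 chx10:GFP wells (and 21 isl1a:GFP wells) with over 1% of their reads on glial and microglial markers. It gave a log2 difference of chrna8 of 2.30 (adjusted p = 0.00746). Whether glial reads in the remaining wells bear on chrna8 was not tested.

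**Figure D5:**
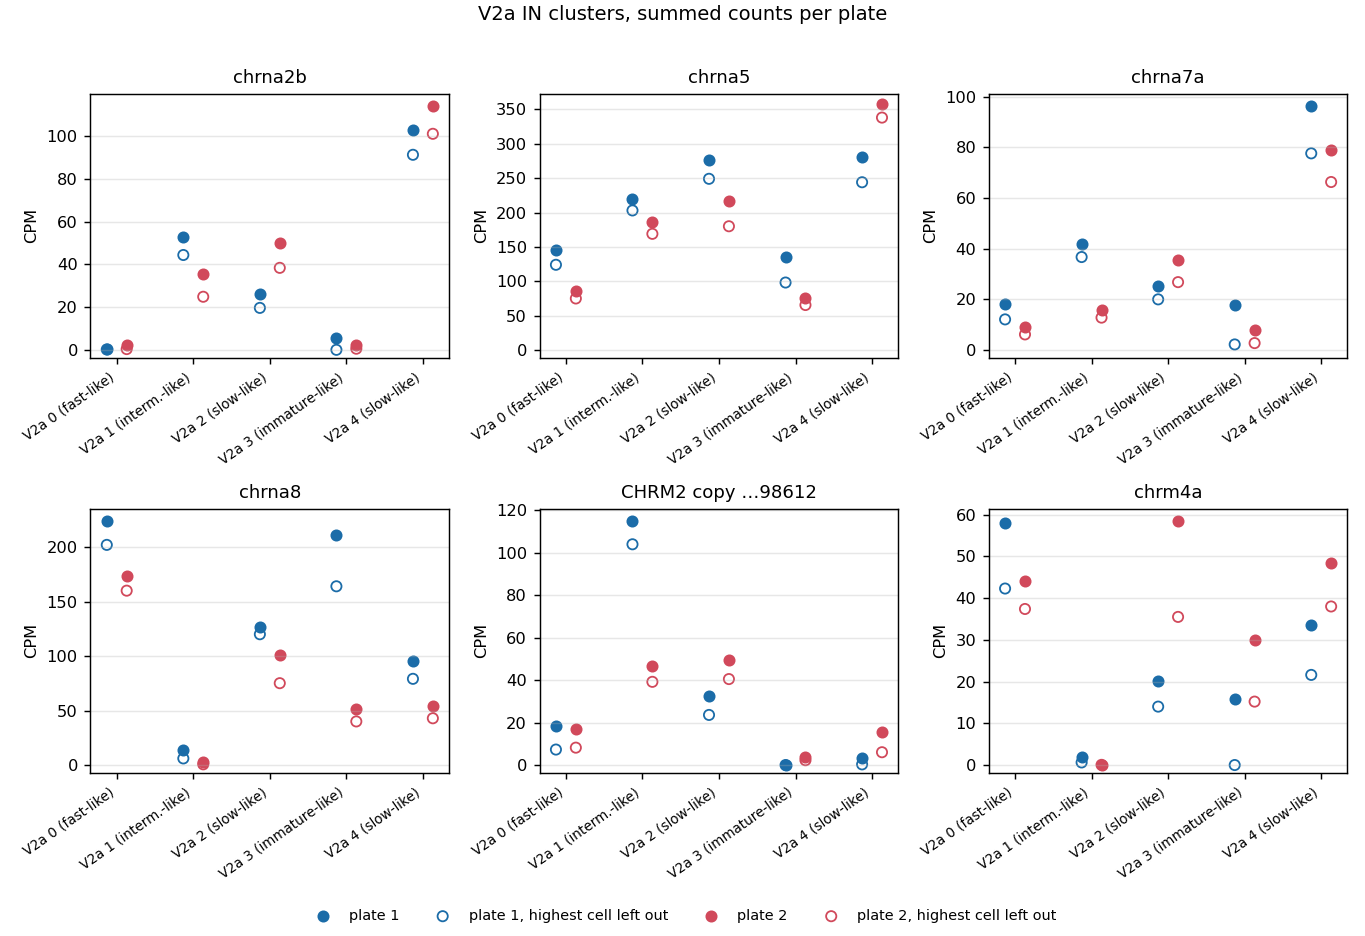
CPM of 6 receptor genes in the 5 clusters of chx10:GFP cells, for plate 1 (blue) and plate 2 (red); filled points are all cells and open points leave out the cell with the most reads of the gene. With all cells, the slow-like cluster 4 is highest for chrna2b, chrna5 and chrna7a, and the intermediate-like cluster 1 is lowest for chrna8 (13.5 and 2.55 CPM). With the highest cell left out, the slow-like clusters 4 and 2 overlap for chrna5.

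A pair of muscarinic genes, both coupled to Gi/o, passed contrasts of the intermediate-like cluster but not the F-test, in opposite directions. CHRM2_98612 had 115 and 46.7 CPM there, 32.5 and 49.4 CPM in the slow-like cluster 2, 18.6 and 16.8 CPM in the fast-like cluster, 3.21 and 15.5 CPM in the slow-like cluster 4 and 0.224 and 3.73 CPM in the immature-like cluster. The intermediate-like and the slow-like cluster 2 overlapped (log2 3.31, SE 0.70, adjusted p = 0.0333 in the contrast and 0.0568 in the F-test). The immature-like cluster was lower (log2 -4.06, SE 1.01, adjusted p = 0.0356), and both calls were lost in 7 of 11 alternatives. By contrast, chrm4a had 1.83 and 0.0835 CPM in the intermediate-like cluster and 15.9 to 58.5 CPM on the plates of the others, without overlap (log2 -5.17, SE 1.12, adjusted p = 0.0387 in the contrast and 0.117 in the F-test). With the highest cell of each sum left out, the adjusted p for chrm4a was 0.163.

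Of the genes not called, chrna2a and chrna3 were highest in the intermediate-like cluster on each plate without overlap with the other clusters, at 35 and 20.3 CPM and at 24.3 and 34.2 CPM (adjusted p = 0.368 and 0.179), and chrnb4 had 52.8 and 22.9 CPM there, overlapping with the slow-like cluster 4 (31.2 and 1.08 CPM). Among the chx10:GFP cells, chrnb4 was found in 33.3% and 28.6% of the cells with chrna3 and in 12.7% and 4.58% of the cells without it, and no test was run on cells. For chrna5, a beta subunit (chrnb2 or chrnb4) was found in 45.8% and 41.5% of cells with it and in 34.9% and 32% of the others. In MN-like cells the same shares were 30.6% and 39% against 38.7% and 26.8%, so that the order differed between the plates. The subunit chrna4b, read in most MN clusters and in the glutamatergic-like isl1a:GFP cells, had at most 15.6 CPM on any plate of a V2a IN cluster.

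Around the receptors, 2 of 16 effector genes were called in the F-test, where 4.59% of all genes tested were called. The copy ENSDARG00000018174 of GNAI2, an inhibitory G protein subunit, was lower in the intermediate-like cluster (log2 -1.87, SE 0.34, adjusted p = 0.0144). The copy ENSDARG00000062217 of KCNJ3, which encodes a subunit of the potassium channels that open downstream of Gi/o, was higher in the slow-like cluster 4 (log2 2.13, SE 0.26, adjusted p = 0.00327) and lower in the immature-like cluster (log2 -2.51, SE 0.35, adjusted p = 0.0016). Of 8 partner genes, agrn was called, as higher in the intermediate-like cluster (log2 2.07, SE 0.32, adjusted p = 0.00503). Of 6 ligand genes, 3 were called, of which chata and a slc18a3 copy had helped to name the fast-like cluster. The third was the choline transporter copy ENSDARG00000074860 listed as SLC5A7. It was higher in the fast-like cluster (1722 and 1690 CPM, log2 3.73, SE 0.22, adjusted p = 2.43e-05). It also passed as higher in the slow-like cluster 2 (log2 2.06, adjusted p = 0.00948) and the immature-like cluster (log2 1.18, adjusted p = 0.0142). In the intermediate-like cluster it was lower (3.77 and 3.8 CPM, log2 -7.15, SE 0.41, adjusted p = 1.17e-05). The immature-like cluster was also higher in chata (log2 2.19, adjusted p = 0.00369) and the slc18a3 copy (log2 2.60, adjusted p = 0.00148).

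The levels of chrna2b and CHRM2_98612 in fast-like cells differed between the populations. A fit over the clusters of both lines tested the difference of the fast-like cluster from the other clusters in MNs minus that in V2a INs, where 0.586% of all genes and 2 of 31 receptor genes were called. For chrna2b, the fast-like cluster was higher by 4.88 on the log2 scale in MNs, and the log2 difference in V2a INs was -4.41, which gave 9.29 (SE 1.45, adjusted p = 0.0038). For CHRM2_98612, fast-like MNs had no read and fast-like V2a INs had 18.6 and 16.8 CPM, close to the mean of the other V2a IN clusters (log2 0.30), and the test of the difference had an adjusted p of 0.0192. For chrna8 and chrna4b the populations did not differ by this test (adjusted p = 0.516 and 0.757), which does not show that they were alike. The fast-like clusters of the populations come from different lines and plates, so that line and plate cannot be told apart from cell type.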

How the data were processed

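The deposited tables hold the authors' raw read counts per gene and well, without normalization; per the submitters' processing notes, STAR 2.5.3a, GRCz11, R 4.0.5 and Seurat 4.0.2 were used, and the counting program is not given in the sources used here. Cells of isl1a:GFP plate 2 came in a table of their own. Spike-in sequences (3.17% of all counts) and the GFP reporter (0.517%) were left out of library sizes. A table of gene names gave 29200 of the 32519 genes a symbol.

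Cells were clustered with Seurat 5.3.0 in R 4.3.3 (2000 variable genes, 10 principal components, resolution 0.6, isl1a:GFP plates integrated over 30 dimensions), with receptor and marker genes held out, and clusters were named "-like" where at least 3 markers were detected and the 10 leading genes did not hold more markers of another class than of their own; no doublet caller was run, since single cells were sorted. Counts were summed per plate and group and tested with edgeR 4.0.16 (TMM factors, filterByExpr, quasi-likelihood test, adjusted p below 0.05 over all genes). Each SE was derived as the absolute log2 difference divided by the square root of the F value of the test. It is not a spread measured between plates. Plate was a block within a line, since 1 pool of cords supplied all clusters of a plate; the correlation of deviations of same-plate sums had a median of 0.1 (isl1a:GFP groups), 0.136 (MN clusters) and 0.0345 (V2a IN clusters). Plates of different lines come from different pools (r = 0.0361) and were not paired. DESeq2 1.42.0 was an alternative, and the fits were tested on simulated data, in which they made more false calls than the threshold allows, those over more than 2 groups most of all, so that adjusted p-values may be too small. Cells were thinned to the 10th percentile of reads, 240501, which left out 22 and 14 isl1a:GFP and 40 and 49 chx10:GFP cells.

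Genes of the described set had at least 10 CPM on both plates of 1 group or cluster, or were called, and not each of them is given in every comparison. Other genes named were chosen after their values were seen. Pathway genes came from fixed lists of ligand, partner and effector genes. Those that were not also markers were not held out of the clustering. The members and lists were chosen with earlier results of these data known. The test of fast-like cells between populations, and the alternatives on glial wells, on single clusters and on the highest cell, were chosen after seeing the data. The values of 1 marker gene are not reported here.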

Additional observations from a re-analysis of the deposited data

Results flagged for a closer look

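The difference of fast-like cells from the other clusters was not the same in MNs and V2a INs for 2 receptor genes, by a test of that difference with edgeR. For chrna2b it was 9.29 on the log2 scale (SE 1.45, adjusted p = 0.0038), with the fast-like cluster high in MNs (797 and 589 CPM) and low in V2a INs (0.5 and 2.36 CPM). For CHRM2_98612 the fitted value was -10.77 (SE 2.03, adjusted p = 0.0192), with no read in fast-like MNs and 18.6 and 16.8 CPM in fast-like V2a INs. Because of the missing reads, the size of this second value depends on the prior count and is no bound.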

How the results depend on the processing

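No result changed its direction under any alternative. Without the filter on low counts, 4 receptor genes were called between MN-like and chx10:GFP cells (1 in the reported test), 8 among isl1a:GFP groups (4), 3 among MN clusters (0) and 7 among V2a IN clusters (4). The DESeq2 test called 8, 10 and 5 in the first 3 comparisons. No share over all genes stands beside the numbers of DESeq2 and of the other alternatives, so they cannot show an excess among receptor genes. With the highest cell of each gene left out of each sum, an alternative chosen after seeing the data, the numbers were 3, 2 and 2 in the same order, and chrna3 and chrm4a were no longer called among the isl1a:GFP groups. Between MN-like and chx10:GFP cells, the replicate block, by numbers that name different pools, gave 4 calls, all isl1a:GFP wells gave 2 and chx10:GFP cells without the immature-like cluster gave 2. Without the replicate block, the counts were 4, 0 and 3 in the other comparisons. Resolution 0.4 gave 1 call among MN clusters. At least 3000 genes per well, resolution 0.8, and leaving out the immature-like cluster (chosen after seeing the data) each gave 2 calls among V2a IN clusters. Leaving out each plate in turn gave 1 to 9 calls between MN-like and chx10:GFP cells, 5 to 7 among isl1a:GFP groups, 1 to 2 among MN clusters and 0 among V2a IN clusters, the last 3 in a fit with the other line's clusters. A lone sum is thereby assumed to vary like the other groups, in the first comparison like the other line's 2 plates only, so that its number of calls says nothing about the plate left out. The cause of these shifts was not tested. Fits without integration of the isl1a:GFP plates do not apply to V2a IN clusters. With 2 plates per line and as few as 8 fast-like MNs on a plate, a receptor gene that was not called is not shown to be alike between groups.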
